A study of Mus musculus with 18 samples.

Results

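The methylation of 8 dual-specificity phosphatase genes, *Dusp1*, *Dusp2*, *Dusp4*, *Dusp5*, *Dusp6*, *Dusp7*, *Dusp10* and *Dusp16*, was followed by whole-genome bisulfite sequencing (WGBS) of CD11b+ and of CD4+ cells from the mouse spleen. Every region that overlapped the GENCODE body of one of these genes, extended by 5 kb on each side, was taken from the deposited region tables. This gave 122 of the 411770 regions listed for CD11b+ cells and 147 of the 553467 regions listed for CD4+ cells. All 8 genes had at least 3 listed regions in each cell type, and 13 of the 122 and 15 of the 147 regions also overlapped another annotated gene.

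The compared groups were untreated Dnmt3a+/+ mice, called WT here, and Dnmt3aR878H/+ mice, with 4 mice per genotype and cell type. The R878H allele was a conditional knock-in that was recombined by a constitutive Vav1-iCre transgene, which is active across the blood lineages, so the heterozygous substitution was directed to hematopoietic cells. The mice were on a C57BL/6 background, and mice of this work were in general 8 to 10 weeks old. Control mice carried Cre without the mutant allele, or the unrecombined allele without Cre, and which of these were sequenced is not stated. CD11b+ cells, which are myeloid cells, were taken from the spleen with antibody-coated magnetic beads, and CD4+ cells, which are mostly helper T cells, by positive selection. CD11b+ cells of Dnmt3aR878H/+ mice have 6 sample entries for 4 mice, because the replicates numbered 3 and 4 have a pair of entries each. The second entries of these pairs are labelled S201 and S202, and the other CD11b+ entries S110 to S117. In CD4+ cells, WT entries are labelled S118, S119, S120 and S203, and Dnmt3aR878H/+ entries S204 to S207. What these labels mean is not stated. Their part in the differences between genotypes was not tested, and group means do not allow such a test.

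DNMT3A is a DNA methyltransferase that places new methyl groups on cytosines of CpG dinucleotides, and the R878H substitution lowers its activity. Dual-specificity phosphatases remove phosphate from the threonine and the tyrosine in the activation loop of mitogen-activated protein (MAP) kinases, and so switch off ERK, JNK and p38 signalling. Most of these genes are themselves induced by MAP kinase signalling and act as a negative feedback. *Dusp1*, *Dusp2*, *Dusp4* and *Dusp5* encode nuclear enzymes, *Dusp6* and *Dusp7* encode cytoplasmic enzymes that prefer ERK, and *Dusp10* and *Dusp16* encode enzymes that prefer JNK and p38. In macrophages and T cells they limit the duration of MAP kinase signals after a stimulus.

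Each table row gives a region, its number of sites, and the authors' mean methylation of the WT and the Dnmt3aR878H/+ group in percent. Neither values of single mice nor read depths are in the tables, so the group means have no error here, the depth behind each region is unknown, and no difference between genotypes was tested across mice. The sites are CpG cytosines of either strand. Of the 122 and 147 regions at the 8 genes, 93 and 126 have more sites than CpG dinucleotides in mm10, and 0 and 0 have more sites than CpG cytosines on both strands. The smallest number of sites is 10 in both tables. In regions with 10 sites, all group means are whole multiples of 0.025 within the rounding of the file, in each of the 4 groups, as 4 whole-percent values per site would give. If the 4 mice weigh equally, a mean above 25% where WT is at 0% cannot come from 1 mouse alone. A differentially methylated region (DMR) was a region with more than 10 sites, a difference of the group means above 20 percentage points and a q-value of the region caller below 0.05. That q-value comes from the region caller's comparison of the values of all sites in a region, and it was not read as a test across mice. Differences are given as WT minus Dnmt3aR878H/+ in percentage points.

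Pooled over pairs, methylation at marker genes followed the cell type labels, but not at every gene. At 13 T cell genes, 34 pairs of overlapping regions of both tables (28.6%) were lower by more than 20 percentage points in WT CD4+ cells and 4 (3.36%) in WT CD11b+ cells, next to 2.3% and 5.05% of all pairs in the tables. At 13 myeloid genes the corresponding counts were 1 (1.25%) and 18 (22.5%) of 80 pairs. At 6 B cell genes they were 6 (4.32%) and 8 (5.76%) of 139 pairs, and the 3 NK cell genes had 0 pairs.

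Most regions at the phosphatase genes were less methylated in Dnmt3aR878H/+ cells, and regions with a large difference were frequent among them. In these bulk samples, another mix of cell types and another methylation within a cell type cannot be told apart. In CD11b+ cells the median methylation of the 122 regions was 83.2% in WT and 69.8% in Dnmt3aR878H/+ mice. Over the 147 regions of CD4+ cells the medians were 87.1% and 77.5%. For CD11b+ cells the median of the differences was 9.56 percentage points (95% interval over regions 7.65 to 11.9), against 6.55 over all listed regions. For CD4+ cells it was 8.33 percentage points (7.3 to 9.95), against 6.85. Regions are not replicates, and these intervals hold no error between mice.

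Of the 122 CD11b+ regions 91.8% were lower in Dnmt3aR878H/+ mice, next to 93.4% of all listed regions. Of the 147 CD4+ regions 140 (95.2%) were, next to 95.5%. The direction of the difference at the 8 genes was therefore that of the genome at large. A difference above 20 percentage points was found in 24 of the 122 regions (19.7%) of CD11b+ cells, where 7.01% of all listed regions passed it. It was found in 30 of the 147 regions (20.4%) of CD4+ cells, where 6.23% passed. The starting level moved with this share, since 36.1% of the regions at the 8 genes had a WT mean between 20% and 80% in CD11b+ cells, against 24.4% of all listed regions, and CD4+ cells had 36.7% against 20.6%. Where the mean of both genotypes was between 60% and 80%, the median difference in CD11b+ cells was 13.4 percentage points over 27 regions at the 8 genes and 11.3 over all regions of that level. The same medians in CD4+ cells were 18.3 over 25 regions and 11.5. Above 80%, CD11b+ cells had medians of 6.87 and 5.23, and CD4+ cells of 6.03 and 5.64. Between 20% and 40% the medians were 22.9 over 15 regions and 15.6 for CD11b+ cells, and 16.3 over 12 regions and 14.2 for CD4+ cells. Between 40% and 60%, 9 of 16 CD11b+ regions lay above the median over all regions of that level, 17.2, and 17 of 25 CD4+ regions lay above theirs, 16.9. Below 20% CD11b+ cells went the other way, with a median of 0.858 over 14 regions at the 8 genes against 3.31, and 5 of the 14 above the latter, while CD4+ cells had 5.91 over 10 regions against 4.

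**Figure D1:**
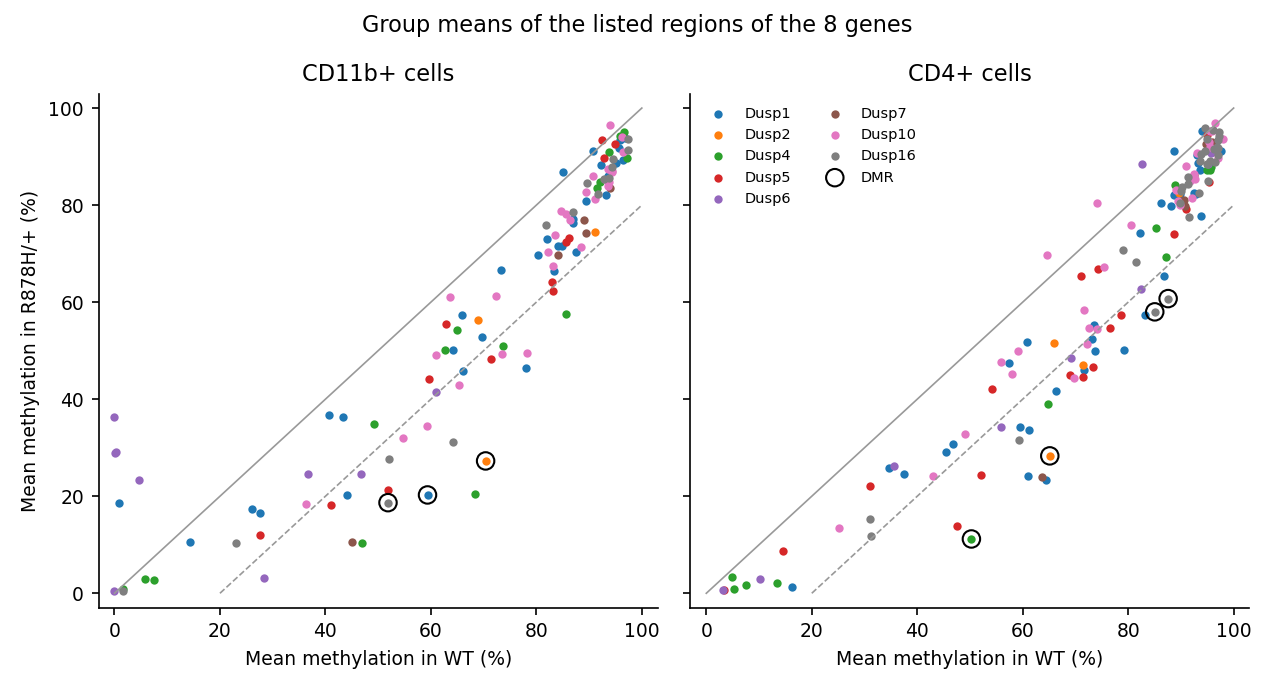
Mean methylation of each listed region of the 8 genes in WT (x axis, percent) and Dnmt3aR878H/+ mice (y axis, percent), for CD11b+ cells (122 regions, left) and CD4+ cells (147 regions, right). Each point is 1 region coloured by gene, circles mark DMRs, the solid line marks equal means and the dashed line a WT mean higher by 20 percentage points. Most points lie below the solid line, and the points far above it are 4 regions of *Dusp6* and 1 of *Dusp1* near the lower left corner of the CD11b+ panel.

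DMRs with lower methylation in Dnmt3aR878H/+ cells lay at *Dusp1*, *Dusp2* and *Dusp16* in CD11b+ cells and at *Dusp2*, *Dusp4* and *Dusp16* in CD4+ cells. They numbered 3 among the 49 regions with more than 10 sites in CD11b+ cells (6.12%, against 1.38% of all such regions) and 4 among 63 in CD4+ cells (6.35%, against 1.49%). By gene, 3 of 8 had such a DMR in each cell type, where 8.88% of 17479 protein-coding genes had one in CD11b+ cells and 11.8% of 18459 in CD4+ cells. The 8 genes held more listed regions than other genes, with a median of 14 against 9 for CD11b+ cells and of 15.5 against 11 for CD4+ cells. DMRs with higher methylation in Dnmt3aR878H/+ cells numbered 0 and 0, against 0.0302% and 0.00121% of all regions with more than 10 sites. All 3 DMRs of CD11b+ and all 4 of CD4+ cells had a difference larger than 1 of 4 equally weighted mice could give. This limit assumes that the other mice were at the WT mean. For the CD11b+ DMRs, and for *Dusp2* and *Dusp4* in CD4+ cells, it was 12.6 to 17.6 percentage points. There the 20 a DMR needs already exceeded the limit, so the comparison adds nothing. At the CD4+ DMRs of *Dusp16* the limits were 21.3 and 21.9, against differences of 27.0 and 26.8. How many mice carried each difference was not tested.

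*Dusp2*, which encodes the immune cell phosphatase PAC1, was the gene with a DMR at the same place in both cell types. In CD11b+ cells the region chr2:127332736-127333720 (mm10, 20 sites), which ends 2439 bp before the transcription start, had means of 70.4% in WT and 27.3% in Dnmt3aR878H/+ mice. The CD4+ region, chr2:127332605-127333425 (22 sites), ends 2734 bp before the start and had means of 65.1% and 28.3%. Both cell types thus went from about the same WT level to about the same low level. The 300 bases shown are those at the start of the shared stretch, chosen for their number of CpGs (chr2:127332736-127333035, mm10, plus strand), with the 6 CpGs in capitals.

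Dusp2 upstream: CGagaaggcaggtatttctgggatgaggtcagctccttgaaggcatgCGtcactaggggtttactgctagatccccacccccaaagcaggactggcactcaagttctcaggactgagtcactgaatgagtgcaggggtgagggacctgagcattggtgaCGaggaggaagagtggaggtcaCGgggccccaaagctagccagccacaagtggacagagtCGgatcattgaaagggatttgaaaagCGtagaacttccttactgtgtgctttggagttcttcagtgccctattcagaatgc

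The CpGs stood far apart in this stretch, at 2 per 100 bases. The remaining regions of *Dusp2* were lower in Dnmt3aR878H/+ cells as well, by between 7.06 and 24.3 percentage points. Of these, the CD11b+ region that adjoins the DMR on its upstream side (chr2:127332511-127332722, 12 sites) went from 91.0% to 74.5%. Behind the gene, a pair of overlapping regions was at 69.0% and 56.4% for CD11b+ cells and at 71.4% and 47.1% for CD4+ cells. With 3 and 4 regions, *Dusp2* had the highest gene median of the 8 genes in both cell types, 16.5 percentage points in CD11b+ and 19.2 in CD4+ cells, which was above that of 98.3% and 99.4% of the genes with at least 3 regions.

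*Dusp4* encodes an inducible nuclear phosphatase of ERK, JNK and p38, and its first intron held the strongest single difference of the CD11b+ set. The intronic CD4+ region chr8:34809820-34810575 (22 sites), which begins 2523 bp after the transcription start, was a DMR with means of 50.3% in WT and 11.2% in Dnmt3aR878H/+ mice. In CD11b+ cells the region chr8:34810014-34810271 inside it had means of 68.3% and 20.5%, a difference of 47.8 percentage points. It has exactly 10 sites and a caller q-value of 0.15, so it was not a DMR. The stretch common to both cell types is shown with its 11 CpGs in capitals (chr8:34810013-34810271, mm10, plus strand).

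Dusp4 intron: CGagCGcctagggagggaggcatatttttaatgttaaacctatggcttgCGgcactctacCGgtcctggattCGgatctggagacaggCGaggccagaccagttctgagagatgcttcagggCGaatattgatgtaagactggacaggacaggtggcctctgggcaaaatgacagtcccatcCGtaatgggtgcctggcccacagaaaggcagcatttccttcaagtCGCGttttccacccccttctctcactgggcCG

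Further along the first intron, more regions had large differences in one or both cell types. The region chr8:34814278-34814836 was at 46.9% in WT and 10.3% in Dnmt3aR878H/+ CD11b+ cells, and the overlapping CD4+ region, chr8:34813908-34815027 with 31 sites, was at 64.8% and 39.0%. The CD11b+ region chr8:34811912-34812771 was at 85.7% and 57.5%. The CD4+ region chr8:34810695-34812431, with 41 sites, went from 87.1% to 69.2%, a difference of 17.9 percentage points that fell short of the 20 a DMR needs. Between 10 and 13 kb from the start the gene was highly methylated in every group, for example at 97.3% and 89.7% in CD11b+ cells in chr8:34818309-34818415. The region nearest to the start in CD11b+ cells, chr8:34806062-34806490, was nearly unmethylated, at 5.8% and 2.93%. The gene median was 7.8 percentage points for CD11b+ and 7.83 for CD4+ cells, so the large differences were local ones, and those named here lay in the first intron.

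*Dusp16*, whose product acts on JNK and p38, had 1 DMR in CD11b+ cells and 2 in CD4+ cells, none at a shared place. The CD11b+ DMR, chr6:134793931-134794123 (13 sites), lies 1306 bp before the start of the GENCODE principal transcript, inside the body of the longer RefSeq gene model, and had means of 51.9% in WT and 18.7% in Dnmt3aR878H/+ mice. The overlapping CD4+ region, chr6:134794056-134794192 with 12 sites, was at 31.1% and 15.4%, so CD4+ cells began lower and differed by 15.7 percentage points. The sequence of the CD11b+ DMR is shown with its 8 CpGs in capitals (mm10, plus strand; the gene is on the minus strand).

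Dusp16 upstream: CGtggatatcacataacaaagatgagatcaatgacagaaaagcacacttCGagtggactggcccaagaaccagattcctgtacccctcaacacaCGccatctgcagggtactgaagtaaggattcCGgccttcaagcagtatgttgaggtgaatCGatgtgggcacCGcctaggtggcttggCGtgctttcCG

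The first CD4+ DMR lies in an intron, at chr6:134774893-134775401 (18 sites), with 85.0% in WT and 58.0% in Dnmt3aR878H/+ mice. CD11b+ cells at chr6:134774936-134775401 (12 sites) had the larger difference, from 64.1% to 31.1%, but a caller q-value of 0.95, so the q-value alone kept it from being a DMR. The second CD4+ DMR, chr6:134716139-134716518 (13 sites), lies in the last exon over the 3′ untranslated region and went from 87.6% to 60.7%. CD11b+ cells have no region over most of it, and their neighbouring region, which shares 56 bases with it, was at 89.6% and 84.6%. Near the start, the CD11b+ region chr6:134793147-134793350 was at 52.0% and 27.6%, and the overlapping CD4+ region at 59.3% and 31.6%. The rest of the long gene body was highly methylated and differed little, which gave gene medians of 7.35 and 6.45 percentage points.

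**Figure D2:**
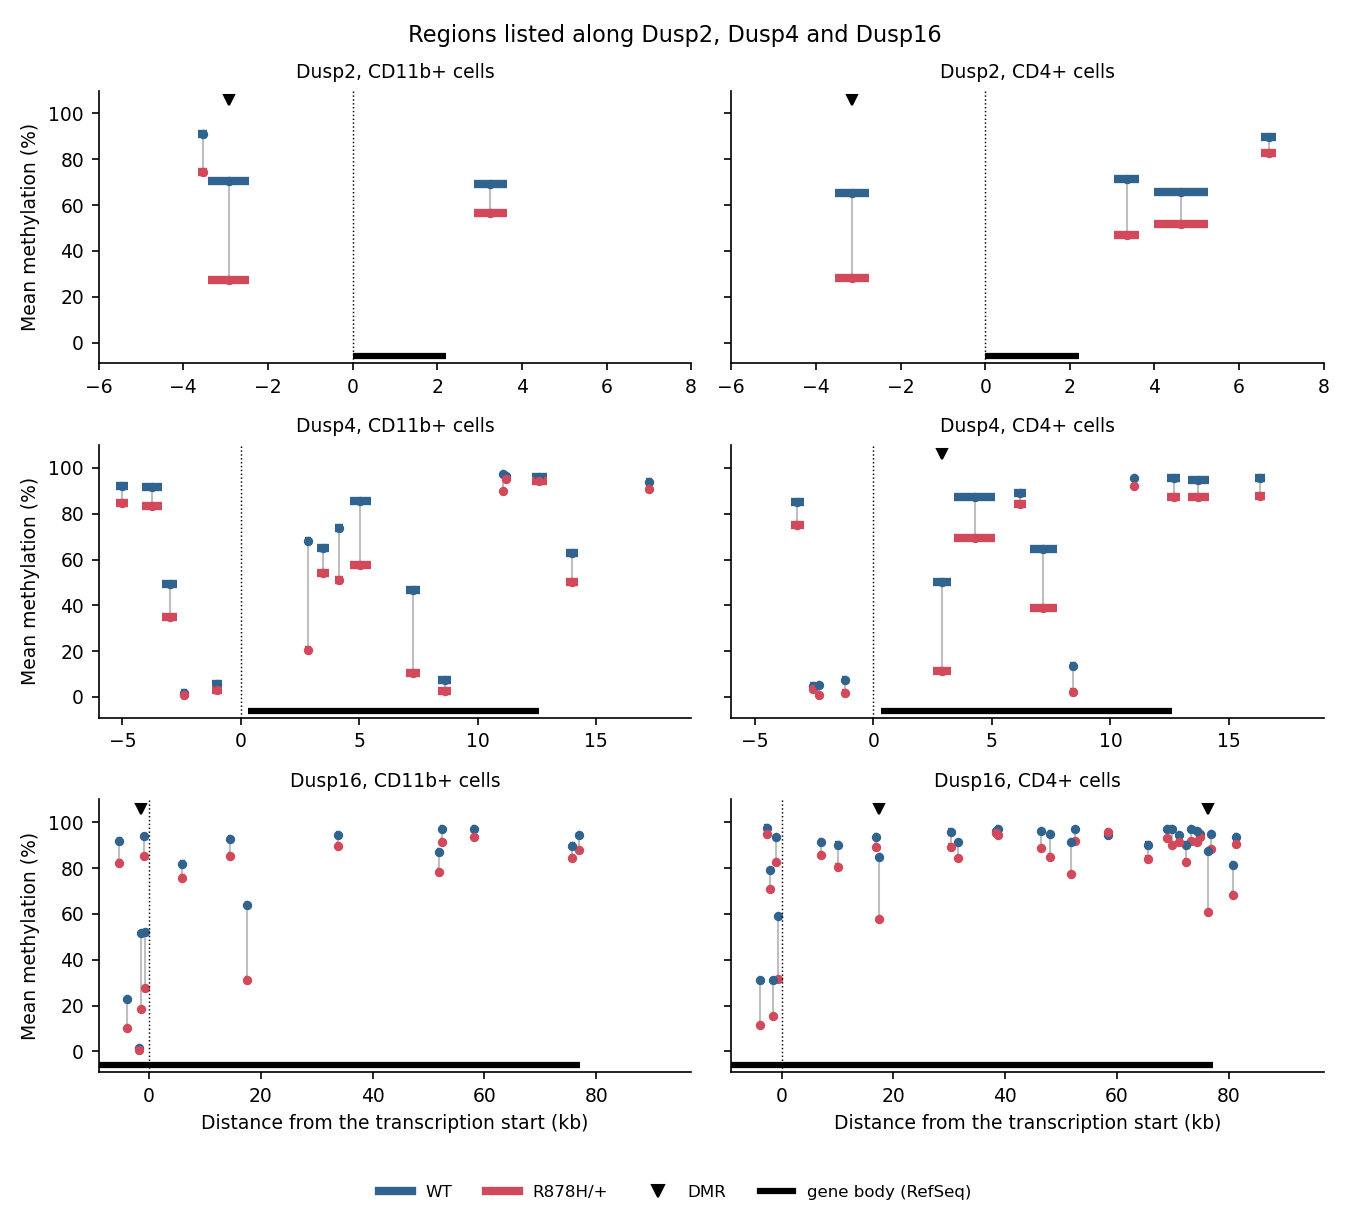
Mean methylation (y axis, percent) of the regions listed along *Dusp2*, *Dusp4* and *Dusp16* against the distance from the transcription start (x axis, kb, positive in the direction of transcription), for CD11b+ cells (left) and CD4+ cells (right). Bars span each region in WT (blue) and Dnmt3aR878H/+ mice (red), points mark region centres, grey lines join the 2 means, triangles mark DMRs and the black bar the RefSeq gene body. The largest gaps are in front of *Dusp2* and in the first intron of *Dusp4*, while *Dusp16* has gaps of like size near its start and in an intron, and in CD4+ cells also in the last exon.

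*Dusp1*, the immediate-early phosphatase that limits p38 and JNK signalling, had its largest differences behind the gene in both cell types and, in CD11b+ cells, the opposite direction at its start. In CD11b+ cells the DMR chr17:26503943-26504865 (16 sites), which begins 3654 bp after the start and lies past the end of the gene, had means of 59.4% in WT and 20.3% in Dnmt3aR878H/+ mice. The CD4+ region chr17:26504263-26504670 was at 64.4% and 23.4%, with a caller q-value of 0.008. It has exactly 10 sites, 1 short of the number a DMR needs. The 300 bases of this shared stretch with the most CpGs are shown, with the 5 CpGs in capitals (chr17:26504371-26504670, mm10, plus strand; the gene is on the minus strand).

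Dusp1 downstream: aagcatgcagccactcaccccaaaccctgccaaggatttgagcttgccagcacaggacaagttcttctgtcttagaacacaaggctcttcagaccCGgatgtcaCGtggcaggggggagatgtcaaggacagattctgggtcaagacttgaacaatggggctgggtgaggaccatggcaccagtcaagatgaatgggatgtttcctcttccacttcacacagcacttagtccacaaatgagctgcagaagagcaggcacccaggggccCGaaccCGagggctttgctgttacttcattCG

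At *Dusp1*, 11 of 35 CD4+ regions and 4 of 33 CD11b+ regions had a difference above 20 percentage points, but the tables list partly different places. Over the 21 pairs of overlapping regions at *Dusp1* the count was 4 in each cell type, 2 of them in the same pairs. The CD4+ region chr17:26507102-26507233 over a coding exon was at 60.9% in WT and 24.2% in Dnmt3aR878H/+ mice, and chr17:26505984-26506494 over the last exon was at 71.6% and 46.1%. Next to the former, chr17:26507241-26507347 was low in CD4+ cells, at 16.3% and 1.35%, as was the CD11b+ region that overlaps both, chr17:26507154-26507462, at 14.2% and 10.6%. The GENCODE body of *Dusp1* extends over 56.5 kb because of a long upstream transcript, while the RefSeq body has 2.88 kb, so most *Dusp1* regions lie upstream of the short gene. Far upstream, chr17:26549501-26550015 was at 77.9% and 46.5% in CD11b+ cells, the region with more than 10 sites that had the largest difference after the DMR. In CD4+ cells that region was chr17:26512976-26513605 (14 sites), at 79.2% and 50.2%.

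*Dusp5*, which encodes a nuclear phosphatase specific for ERK, had 0 DMRs in either cell type but a high gene median, 15.3 percentage points over 13 regions in CD11b+ cells and 11.9 over 18 regions in CD4+ cells. The largest difference lay in front of the gene in both. It was 51.9% against 21.4% in chr19:53527831-53528285 of CD11b+ cells and 47.5% against 14.0% in chr19:53527946-53528285 of CD4+ cells, and both regions have 10 sites. Among regions with more than 10 sites, the largest difference was in chr19:53538569-53539189 of CD11b+ cells (14 sites, 41.0% and 18.1%) and in chr19:53531164-53532114 of CD4+ cells (29 sites, 69.0% and 45.1%). The last had a caller q-value of 0.11. At the 3′ end of the gene the groups were nearly equal, for example 92.5% and 93.4% in chr19:53541688-53542313 of CD11b+ cells. Nearest to the start, CD4+ cells had chr19:53528430-53528662, which ends 447 bp before it, with 3.43% and 0.75%.

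*Dusp7*, the cytoplasmic relative of *Dusp6*, had few regions and 1 large difference, in the same place in both cell types. At chr9:106364947-106365564, which ends 3068 bp before the start, CD11b+ cells were at 45.0% in WT and 10.6% in Dnmt3aR878H/+ mice. At chr9:106364947-106365334, CD4+ cells were at 63.6% and 23.9%. Both regions have 10 sites, and the caller q-values were 0.28 and 0.23. The next region towards the gene differed by 15.3 percentage points for CD11b+ and 6.35 for CD4+ cells, so the large difference was narrow in extent. With more than 10 sites, the largest differences were 12.2 percentage points for CD11b+ and 10.9 for CD4+ cells.

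*Dusp10* had many regions, 28 in CD11b+ and 31 in CD4+ cells, and 0 DMRs in either. Its gene medians were 9.56 and 7.3 percentage points. The largest difference in CD11b+ cells was in intronic chr1:184042557-184043016 (15 sites, 78.2% in WT and 49.5% in Dnmt3aR878H/+ mice), and the largest in CD4+ cells was in intronic chr1:184019552-184020214 (14 sites, 69.8% and 44.5%). The latter ends 14167 bp before the principal start, inside the longer GENCODE body. CD11b+ cells were there at 65.4% and 42.9%. Neither reached the q-value threshold of a DMR. *Dusp10* also held 3 of the 7 CD4+ regions that were higher in Dnmt3aR878H/+ mice, the largest of them over an exon in chr1:184069008-184069476 (16 sites), at 74.2% and 80.5%.

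**Figure D3:**
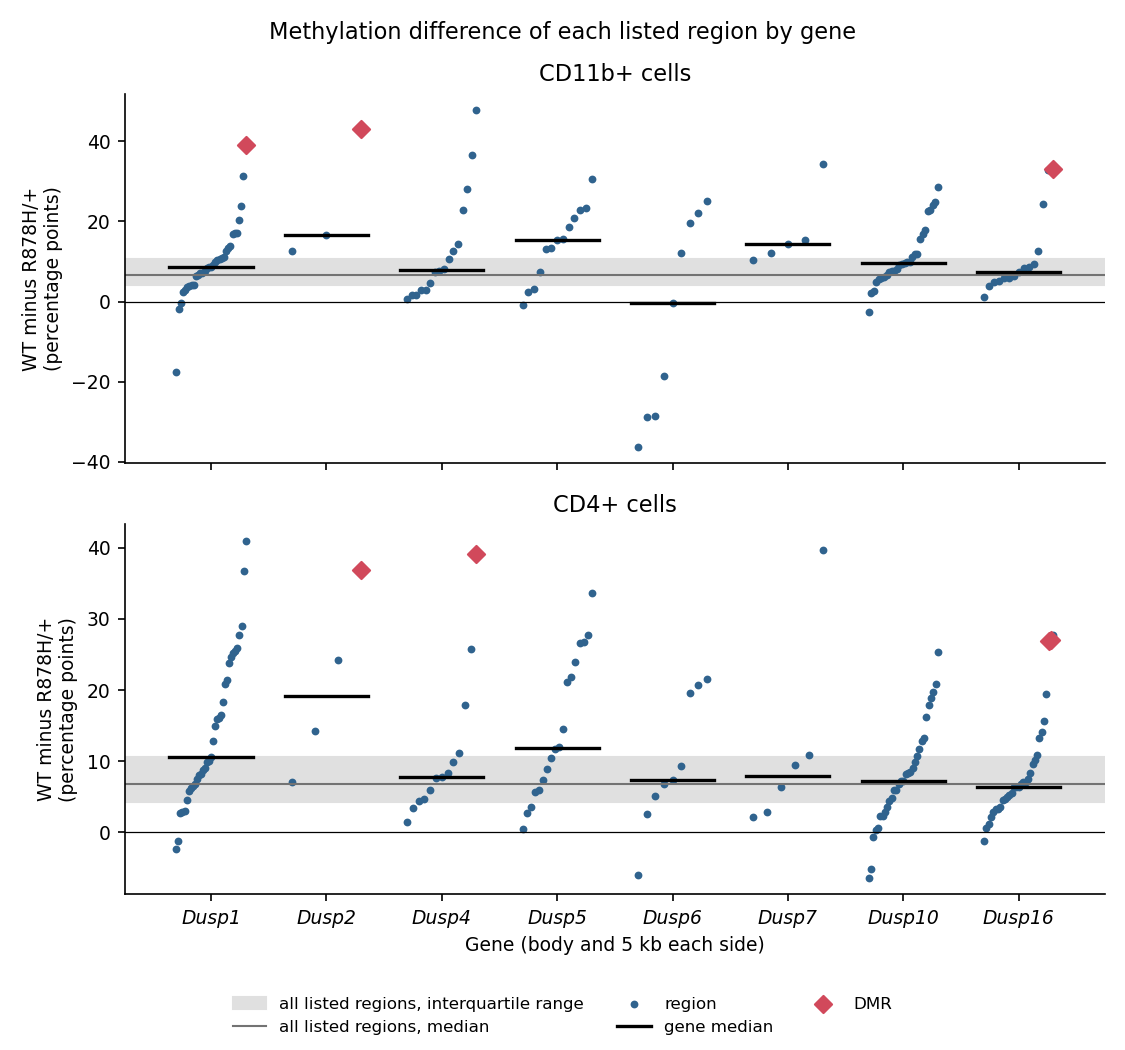
Difference in mean methylation (WT minus Dnmt3aR878H/+, y axis, percentage points) of every listed region, by gene (x axis), in CD11b+ cells (top) and CD4+ cells (bottom). Points are regions in order of their difference, diamonds are DMRs, black bars are gene medians, and the grey line and band are the median and the interquartile range over all listed regions of that cell type. *Dusp6* in CD11b+ cells is the gene whose median, at -0.4, lies below 0.

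*Dusp6*, which encodes the main cytoplasmic phosphatase of ERK, was different in CD11b+ cells, where the 5′ part of the gene was unmethylated in WT mice and methylated in Dnmt3aR878H/+ mice. In the first exon, chr10:99263371-99263826 (20 sites) was at 0% in WT and 36.3% in Dnmt3aR878H/+ mice. The next region, chr10:99263841-99263973 (19 sites), was at 0.184% and 29.0%, and chr10:99263985-99264077 (10 sites) was at 0.35% and 29.1%. The last pair lies in the coding part of the first exon and is shown with 16 and 8 CpGs in capitals (chr10:99263841-99263974 and chr10:99263985-99264078, mm10, plus strand).

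Dusp6 first exon, 5′ region: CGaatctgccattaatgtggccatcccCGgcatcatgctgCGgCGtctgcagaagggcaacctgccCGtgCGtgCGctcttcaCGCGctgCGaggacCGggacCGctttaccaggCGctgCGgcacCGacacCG

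Dusp6 first exon, 3′ region: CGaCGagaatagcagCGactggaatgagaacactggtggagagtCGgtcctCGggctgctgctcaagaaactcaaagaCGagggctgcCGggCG

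These sequences are CpG-rich, with 11.9 and 8.51 CpGs per 100 bases against 2 in the *Dusp2* stretch. The higher methylation was interrupted at the start of the first intron, where chr10:99264108-99264206 was at 0% and 0.4%. It was present again in the second exon, where chr10:99264566-99264926 (28 sites) was at 4.62% and 23.3%. The means of 29.0% to 36.3% are above the 25% that 1 of 4 equally weighted mice could give, while the 23.3% in the second exon is not. None of these regions was a DMR, since the caller gave each a q-value of 1. Values of single mice would be needed to see how the methylation was shared among them, and they are not in the tables.

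The 2 regions in front of *Dusp6* and the 2 behind it had lower methylation in Dnmt3aR878H/+ CD11b+ cells. Upstream, chr10:99259681-99260217 was at 46.8% in WT and 24.7% in Dnmt3aR878H/+ mice. Downstream, chr10:99270460-99270699 (11 sites) was at 28.4% and 3.16%. Over its 9 regions the gene median was -0.4 percentage points, higher than that of 1.03% of genes. The pattern of the first exon could not be examined in CD4+ cells, because 0 of the 61 CpGs within 500 bp of the start were in a listed region, against 26 in CD11b+ cells. In the second exon CD4+ cells went the other way, from 3.2% to 0.641% in chr10:99264566-99264719. Across its 9 regions *Dusp6* had a median of 7.43 percentage points in CD4+ cells, and the upstream region chr10:99258018-99258664 had the largest difference, 55.8% against 34.3%.

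A similar gain was listed at the start of *Dusp1* in CD11b+ cells. There chr17:26508167-26508336 (17 sites), over the start codon and the coding part of the first exon, was at 0.853% in WT and 18.6% in Dnmt3aR878H/+ mice, again with a q-value of 1. This mean is below 25%, so it does not bound the number of mice behind it. CD4+ cells had no listed region there, with 0 of the 100 CpGs within 500 bp of the start covered, against 20 in CD11b+ cells. *Dusp2*, *Dusp4*, *Dusp7*, *Dusp10* and *Dusp16* had 0 CpGs within 500 bp of the start in a listed region of either cell type, and *Dusp5* had 2, in CD4+ cells, so the state of most starts was not analysed here.

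Gains of this kind were also listed elsewhere in the genome. In CD11b+ cells, 5 of the 8 regions with a WT mean below 5% had a gain above 15 percentage points, and 17.8% of the 5835 such regions in the whole table did. For CD4+ cells this was 0 of 3 regions, and 0.066% of 4548 in the table. A gain above 10 percentage points was found in 5 CD11b+ and 0 CD4+ regions at the 8 genes, against 0.61% and 0.182% of all listed regions. The 5 regions belong to 2 genes, and those of *Dusp6* lie side by side, so they are not separate cases. Dnmt3aR878H/+ CD11b+ cells are the group with extra sample entries, and the part of these entries in the gains was not tested.

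**Figure D4:**
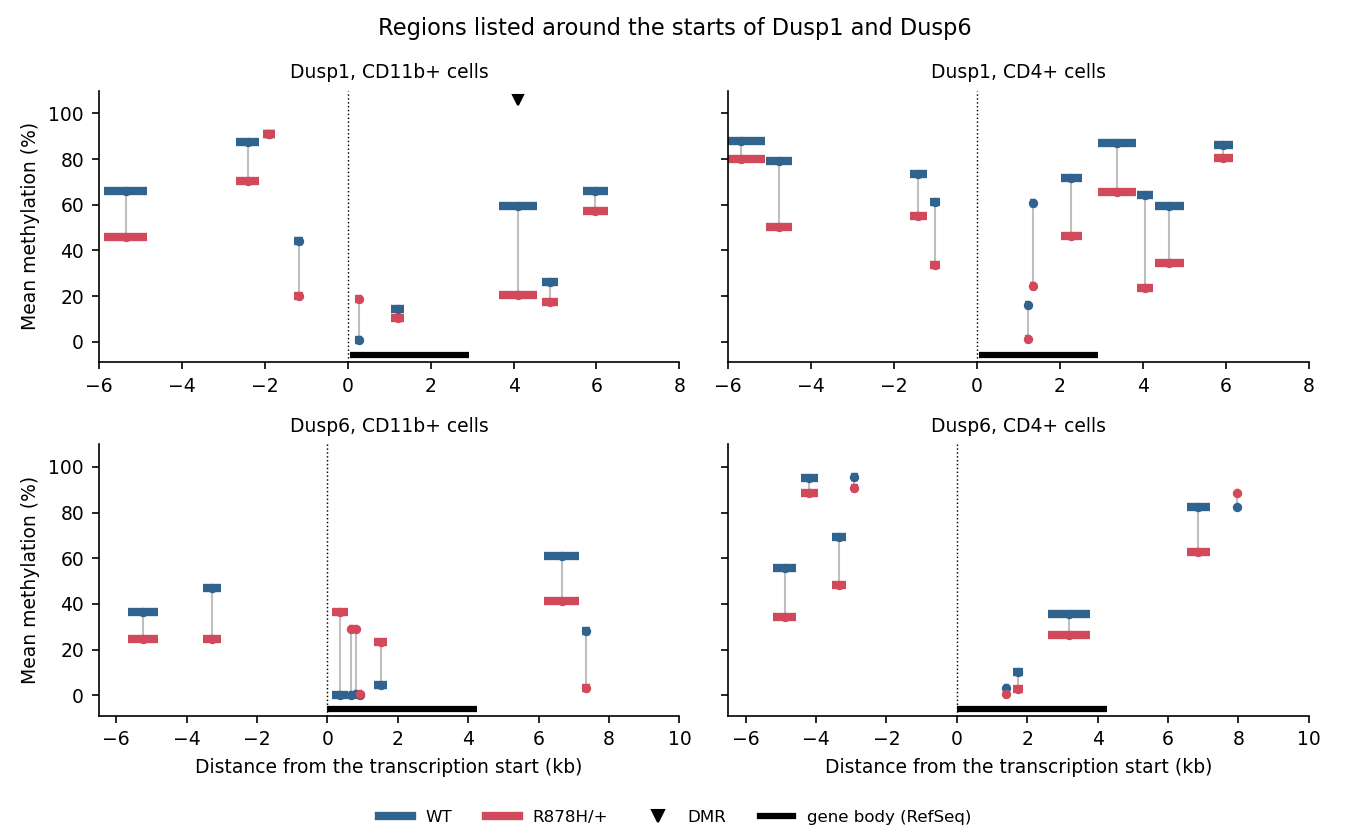
Mean methylation (y axis, percent) of the regions around *Dusp1* and *Dusp6* against the distance from the transcription start (x axis, kb, positive in the direction of transcription), drawn for CD11b+ cells (left) and CD4+ cells (right) with the same marks for WT (blue), Dnmt3aR878H/+ (red), DMRs and the RefSeq gene body as in the plot along *Dusp2*, *Dusp4* and *Dusp16*. In CD11b+ cells the red marks lie well above the blue ones at 4 regions of *Dusp6* and 1 of *Dusp1* in the first 2 kb after the starts, at up to 36.3% for *Dusp6* and at 18.6% for *Dusp1*, and below or close to them at the other regions.

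Where a region of one table overlapped a region of the other, the differences between genotypes mostly had the same direction in both cell types. There were 79 such pairs at the 8 genes. Both cell types were lower in Dnmt3aR878H/+ mice in 73 pairs (92.4%), next to 93.0% of 224200 pairs over the whole tables. A difference above 20 percentage points in both was found in 14 pairs (17.7%), next to 6.49%. The difference in CD4+ cells minus that in CD11b+ cells had a median of 0.098 percentage points, with an interquartile range over pairs of -4.94 to 5.13. Over all pairs of the tables that range was narrower, -2.83 to 3.52. In 2 pairs at the 8 genes (2.53%, next to 0.526% of all pairs) it exceeded 20, at the second exon of *Dusp6* and at the last exon of *Dusp16*. These pairs overlap only in part. The *Dusp6* pair shares 154 of the 361 bases of its CD11b+ region and the *Dusp16* pair 56 of 900, so largely different sites were compared. At *Dusp6* the CD11b+ region was higher in Dnmt3aR878H/+ mice by 18.6 percentage points and the CD4+ region lower by 2.56. At *Dusp16* both regions were lower in Dnmt3aR878H/+ mice, by 5.0 in CD11b+ and 26.8 in CD4+ cells.

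The WT levels differed more between the cell types than the genotype differences did. The WT CD4+ mean was above the CD11b+ mean by more than 20 percentage points in 9 pairs (11.4%, next to 5.05% of all pairs) and below it by more than 20 in 4 pairs (5.06%, next to 2.3%). *Dusp4* supplied the largest of the former, 85.2% in CD4+ and 49.2% in CD11b+ cells upstream of the gene, and 94.9% against 62.7% behind it. *Dusp10* supplied the largest of the latter, 25.1% in CD4+ and 72.3% in CD11b+ cells in the intron just after the start. At that place the genotype difference was nonetheless similar, 11.7 percentage points for CD4+ and 11.1 for CD11b+ cells. Overlapping regions share only part of their sites, which limits these comparisons.

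**Figure D5:**
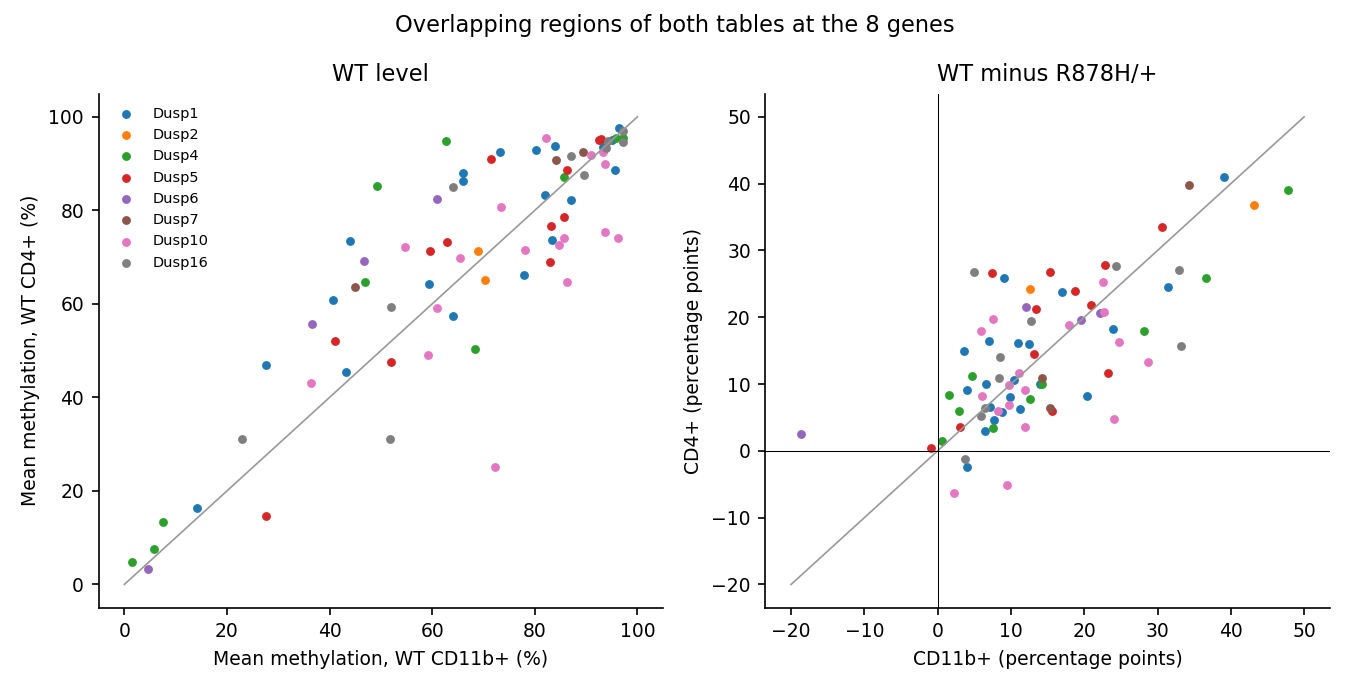
Overlapping regions of both tables at the 8 genes (79 pairs, coloured by gene). The left panel plots the WT mean of CD4+ cells (y axis, percent) against that of CD11b+ cells (x axis, percent), the right panel the WT minus Dnmt3aR878H/+ difference in CD4+ cells (y axis, percentage points) against that in CD11b+ cells (x axis, percentage points), and grey lines mark equal values. In the right panel 73 of 79 points have positive values on both axes, and the point far to the left is the second exon of *Dusp6*.

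At the other end, the lowest difference of a gene ranged from a gain to a clear loss. In CD4+ cells it was 1.45 percentage points at *Dusp4*, 0.45 at *Dusp5*, 2.16 at *Dusp7*, -1.21 at *Dusp16*, -2.35 at *Dusp1*, -6.02 at *Dusp6* and -6.33 at *Dusp10*, and *Dusp2* was the gene whose regions all differed by 7.06 or more. In CD11b+ cells it was 0.615 at *Dusp4*, -0.875 at *Dusp5*, -2.52 at *Dusp10*, 1.1 at *Dusp16*, -17.7 at *Dusp1* and -36.3 at *Dusp6*, while all regions of *Dusp2* and *Dusp7* differed by at least 12.6 and 10.4.

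By position, regions within 1 kb of a start were few, with 4 of 9 lower in Dnmt3aR878H/+ mice in CD11b+ cells and 5 of 5 in CD4+ cells. The higher CD11b+ regions lay at *Dusp1* and *Dusp6*, at places where CD4+ cells had no listed region, so the counts do not compare the cell types. At *Dusp5* and *Dusp16*, where both cell types had such regions, all were lower. Introns gave 58 of 59 lower regions with a median difference of 10.5 percentage points in CD11b+ cells and 71 of 75 with 8.23 in CD4+ cells. Over all listed regions of any position, 93.4% were lower in CD11b+ and 95.5% in CD4+ cells. These shares were not computed by position. Positions follow the GENCODE bodies, so many of these intronic regions at *Dusp1* and some at *Dusp10* lie upstream of the principal start and of the RefSeq body. Other exonic regions gave 16 of 19 with a median of 5.88 and 25 of 26 with 7.88. Regions in front of the genes gave medians of 12.1 over 22 regions and 6.75 over 21, and regions behind them 10.4 over 13 and 9.94 over 20. Introns and flanks held 20 of the 24 differences above 20 percentage points in CD11b+ cells (83.3%) and 20 of 30 in CD4+ cells (66.7%), next to 77.0% and 78.9% of all regions at these genes. Such a difference was found in 14 of 59 intronic and 2 of 19 other exonic regions of CD11b+ cells, and in 12 of 75 and 7 of 26 of CD4+ cells. Over all listed regions of any position, 7.01% had one in CD11b+ and 6.23% in CD4+ cells.

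Further gene lists were described in the same way. Among protein-coding genes with a region of more than 10 sites, 8.88% had a DMR with lower methylation in CD11b+ and 11.8% in CD4+ cells. Whether the other dual-specificity phosphatases act on MAP kinases was not examined. Among 18 other dual-specificity phosphatase genes, 1 of the 17 with a region of more than 10 sites had a DMR with lower methylation in CD11b+ cells, *Dusp23*, at 83.7% in WT and 43.8% in Dnmt3aR878H/+ mice, and 0 of 16 had one in CD4+ cells. Among 20 MAP kinases and their activating kinases the counts were 1 and 2 of 20 (5.0% and 10.0%), too few to be set apart from the shares over all genes. These were *Map2k7*, which activates JNK, at 90.5% and 62.6% in CD11b+ cells, and *Mapk4*, at 79.1% and 52.9%, and *Map2k5*, the activator of ERK5, at 75.4% and 52.2%, both in CD4+ cells.

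Among 15 other feedback inhibitors of ERK signalling found in the annotation, 3 had such a DMR in each cell type, with 5 DMRs in CD11b+ and 6 in CD4+ cells. *Spred2* and *Spred3*, which restrain RAS, were among them in both. *Spred2* had 3 DMRs in each cell type, and the one with the largest difference was at 72.2% and 32.1% for CD11b+ and at 77.9% and 29.2% for CD4+ cells, and the single one of *Spred3* at 90.5% and 48.7% for CD11b+ and at 94.0% and 60.1% for CD4+ cells. The third gene was *Spred1* in CD11b+ cells, at 77.9% and 38.6%, and *Spry1* in CD4+ cells, where the larger of 2 was at 51.4% and 15.8%. This list also held 1 of the 52 DMRs with higher methylation in Dnmt3aR878H/+ CD11b+ cells, at *Dok1*, with 0.677% and 31.1% over 31 sites, a gene named after its values were seen. Over the regions of these 3 lists, in the order given, the median differences were 7.4, 6.48 and 8.23 percentage points for CD11b+ cells and 7.88, 6.36 and 8.19 for CD4+ cells.

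The promoter sequences of RefSeq (mm10, 250 bases before to 50 after the start) were matched for 7 of the 8 genes. They hold 19 CpGs at *Dusp6* to 41 at *Dusp7*, against a median of 7 over 32851 promoters. At most of these genes, the CpG-rich start is the part for which the tables list no region.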

How the data were processed

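WGBS of splenic CD11b+ and CD4+ cells was analysed, with samples grouped by the labels. The authors made the libraries with a Zymo-Seq WGBS kit, aligned the reads with BISCUIT (mm10) and had metilene call regions. Parameters, versions and a coverage minimum are not given in the sources used here, and the submitters' processing notes name FastQC and mm10. The 2 deposited tables have no header, and per region hold the authors' group means of methylation in percent, the number of sites, and the caller's p-values and q-value. Columns of per-sample values number 0. The authors' column of differences was not used. The first group was read as WT, as the study's plots show WT as the more methylated genotype, and every direction rests on it.

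Coordinates count from 1. Gene bodies and starts (of the principal coding transcript) came from GENCODE M21, promoters and other gene models from RefSeq. A region belonged to a gene if it overlapped its body, extended by 5 kb, by 1 bp or more. DMRs were counted by the study's criteria. Regions of both tables were paired by their largest overlap, and intervals of medians use order statistics. Group means allow neither an error between mice nor a test, so results are descriptions beside all listed regions. The genes, lists (other dual-specificity phosphatases, MAP kinases, feedback inhibitors of ERK signalling, cell type markers) and measures were chosen with earlier results of these data known. Named were every DMR, the largest and smallest differences and regions over starts of the 8 genes, and up to 3 genes with a DMR per other list and cell type. *Spry3* was not in the annotation used. Neighbouring regions were named after their values were seen. The procedures were tested on simulated data. Software was pysam 0.24.0, scipy 1.17.1 and pandas 2.3.3 with numpy 2.4.6 under Python 3.11.15, and matplotlib 3.10.9 for the plots.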

Additional observations from a re-analysis of the deposited data

How the results depend on the processing

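The median difference and the share of regions lower in Dnmt3aR878H/+ mice stayed within their 95% intervals over regions under the gene body alone, a 10 kb extension and the RefSeq gene bodies, the last of which was chosen after seeing the data. These settings reuse regions of the main setting, so values within the intervals say little about stability. Of 66 alternatives, 51 left a value within its interval or a count within 1.5 times. Among these, the stricter settings for DMRs with higher methylation started from 0 and could only return 0, so they say nothing about stability. The counts of DMRs depended on the thresholds. In CD11b+ cells the 3 DMRs with lower methylation became 1 with q below 0.01, 12 with no q-value threshold, 12 with Benjamini-Hochberg adjustment of the caller's Mann-Whitney p-values, 0 with more than 20 sites and 0 within the gene bodies alone, since all 3 lie in flanks. The 0 DMRs with higher methylation became 2 with no q-value threshold and 2 with the Mann-Whitney adjustment. In CD4+ cells the 4 DMRs became 16 with no q-value threshold, 16 with the Mann-Whitney adjustment, 2 with a difference above 30 and 2 with more than 20 sites. With more than 20 sites, the median difference in CD11b+ cells turned to -18.6, since 1 region, in the second exon of *Dusp6*, was left. In CD4+ cells it was 10.1 with more than 10 sites and 18.8 with more than 20. The median of the WT CD4+ minus CD11b+ level, 1.75, was -2.65 over the 19 pairs with more than 10 sites in both tables.

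No paired analysis was possible because the tables hold group means only, and for the same reason no replicate was left out. Depth is not in the tables, so which regions rest on few reads is unknown.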
